A study of Mus musculus with 16 samples.

Results

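The genes described here are 38 genes of synaptic transmission, chosen by name from the 55385 genes of the count table: 22 act in the presynaptic terminal and 16 on the postsynaptic side. All 38 were found under 1 gene identifier each, and all 38 were among the 17132 genes that passed the filter on low counts. RNA was taken from the hippocampus of mice aged 9 months, and polyadenylated transcripts were sequenced in 16 libraries. WT mice were wild-type C57BL/6J animals. In Dp16 mice a stretch of chromosome 16 with many orthologs of human chromosome 21 genes is duplicated on 1 homolog, so every cell holds 3 copies of each gene in it. 5xFAD mice carry transgenes, mutant human APP among them, under Thy1 promoter sequences, which are active mainly in neurons, and they form amyloid plaques. 5xFAD-Dp16 mice carry both. Each group had 4 libraries, 2 from females and 2 from males, with no treatment; the strain is given for the wild-type group alone. No litter, cage or preparation batch was given in the labels.

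Neurons pass signals at synapses by releasing transmitter from vesicles. Vesicles are filled and tethered, docked at the active zone, and fused with the membrane by SNARE proteins when calcium enters. Neurexins on the presynaptic membrane bind neuroligins and LRRTM proteins across the cleft, where scaffold proteins of the DLG, SHANK and DLGAP families hold glutamate receptors in place. In the hippocampus most of these synapses are glutamatergic and are made by pyramidal and granule cells, in which calcium and calmodulin kinases serve plasticity. None of the 38 genes lies in the duplicated segment, taken from Lipi to Zbtb21 (chromosome 16, GRCm38), and 1 of them, Stxbp5l, lies on the same chromosome 38.2 Mb before it.

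Promoter sequences are shown for 5 members on which the results turn. Stxbp5l and Pclo were lower in 5xFAD libraries, Unc13a and Slc17a7 fell with the thalamus markers of a library, and Cplx1 did not. They come from RefSeq (GRCm38.p6), where 26 of the 38 members had an entry, and run from 250 bases before the transcript start to 50 bases after it. Capitals mark matches on either strand to the GC box (GGGCGG), a binding motif of SP factors, to the EGR box (GCGTGGGCG) and to the left (TTCAGCACC) or right (GGACAGCGC) part of the RE1 element, which binds the neuronal gene repressor REST. The Stxbp5l window is chr16:37384909-37385208 on the minus strand.
Stxbp5l: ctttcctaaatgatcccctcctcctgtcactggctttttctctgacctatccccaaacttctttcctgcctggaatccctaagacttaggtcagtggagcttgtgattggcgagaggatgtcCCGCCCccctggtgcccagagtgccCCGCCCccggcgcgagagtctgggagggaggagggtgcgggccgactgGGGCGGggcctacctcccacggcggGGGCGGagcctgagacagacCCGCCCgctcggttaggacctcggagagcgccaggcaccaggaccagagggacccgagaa
It holds 5 GC boxes. The Pclo window is chr5:14514668-14514967 on the plus strand.
Pclo: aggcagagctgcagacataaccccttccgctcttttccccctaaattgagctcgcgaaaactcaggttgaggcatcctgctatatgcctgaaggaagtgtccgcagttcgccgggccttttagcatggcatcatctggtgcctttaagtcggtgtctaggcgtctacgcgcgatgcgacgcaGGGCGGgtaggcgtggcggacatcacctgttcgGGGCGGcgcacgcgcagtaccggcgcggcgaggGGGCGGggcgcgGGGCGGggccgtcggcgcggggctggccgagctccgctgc
It holds 4 GC boxes. The Unc13a window is chr8:71671708-71672007 on the minus strand.
Unc13a: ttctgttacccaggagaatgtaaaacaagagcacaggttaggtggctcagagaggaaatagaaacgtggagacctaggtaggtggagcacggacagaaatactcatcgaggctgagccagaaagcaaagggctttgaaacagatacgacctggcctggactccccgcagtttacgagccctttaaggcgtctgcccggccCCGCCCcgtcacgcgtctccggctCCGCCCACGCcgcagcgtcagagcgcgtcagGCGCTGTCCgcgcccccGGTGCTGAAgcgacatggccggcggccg
It holds both RE1 parts just downstream of the start, as reverse complements of the letters printed and so on the strand opposite the gene. An EGR box overlaps 1 of its 2 GC boxes. The Slc17a7 window is chr7:45163671-45163970 on the plus strand.
Slc17a7: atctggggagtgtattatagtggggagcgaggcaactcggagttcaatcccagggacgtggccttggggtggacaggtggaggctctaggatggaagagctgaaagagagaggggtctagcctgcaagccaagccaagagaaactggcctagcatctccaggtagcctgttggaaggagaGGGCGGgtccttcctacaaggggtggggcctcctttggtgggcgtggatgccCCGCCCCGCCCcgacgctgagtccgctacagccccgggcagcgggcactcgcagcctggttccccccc
It holds 3 GC boxes, of which 2 overlap by a base. The Cplx1 window is chr5:108549978-108550277 on the minus strand.
Cplx1: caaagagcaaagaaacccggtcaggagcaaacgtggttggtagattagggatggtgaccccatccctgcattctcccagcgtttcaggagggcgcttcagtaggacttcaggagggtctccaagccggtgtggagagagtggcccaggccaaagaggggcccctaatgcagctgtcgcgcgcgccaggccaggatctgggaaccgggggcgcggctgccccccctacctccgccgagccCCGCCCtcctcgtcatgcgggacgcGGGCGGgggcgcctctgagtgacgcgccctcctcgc
It holds 2 GC boxes. A GC box was found for 20 of the 26 members searched, in 20 of their 40 promoters (50%), against 35.7% of all 32851 promoters of this length. The left RE1 part was found in 3 of the 40 (7.5%; Nlgn1, Syn1 and Unc13a) and in 0.371% of all, and the right part in 1 (2.5%; Unc13a) and in 0.405% of all. The EGR box was found in 2 (5%; Shank3 and Unc13a) against 0.612%. A further motif searched, the CRE (TGACGTCA), was found in 1 (2.5%, Syn1) against 1.79%, and in none of the windows shown. Such matches describe letters in these windows and not binding.

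Levels per length differed widely among members. Values in RPKM, counts per kilobase of gene scaled to sequencing depth, averaged 977.7 over the 16 libraries for Snap25, a SNARE protein of the plasma membrane. Camk2a, the alpha subunit of the main calcium/calmodulin kinase of excitatory synapses, followed at 807.6. Syp, a vesicle membrane protein, stood at 543.8, Slc17a7, the vesicular glutamate transporter VGLUT1, at 473.7 and Vamp2, the SNARE protein of the vesicle, at 450.8. The lowest was Nlgn1 at 7.09, below Nlgn3 at 8.41, Stxbp5l at 9.32 and Lrrtm2 at 9.56. Together the 38 genes took between 1.65% (5xFAD 15) and 2.98% (Dp16 5) of a library's counts.

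Libraries differed in their levels of thalamus markers. A thalamus score, the mean log2 CPM (counts relative to the TMM-adjusted library total, TMM being the trimmed mean of M values) of 12 thalamus markers set to 0 at the WT mean, lay between 1.07 and 1.88 in 6 libraries. These were WT 4, Dp16 14, 5xFAD 6, 13 and 15 and 5xFAD-Dp16 1; the other 10 lay between -0.84 and -0.33. The summed markers reached 553.5 CPM or more in at least 1 library of each group and 168.3 CPM in the lowest, and no marker was at 0 in any group. Values of single libraries are given in the order WT 2, 4, 7 and 16, Dp16 3, 5, 12 and 14, 5xFAD 6, 10, 13 and 15, and 5xFAD-Dp16 1, 8, 9 and 11, whose totals ran from 16922937 to 25308693 counts. Tcf7l2, a transcription factor of thalamic neurons, read 10.04, 92.5, 8.14 and 7.56 CPM in WT, 7.72, 6.25, 7.03 and 141 in Dp16, 62.8, 10.1, 56.6 and 99.9 in 5xFAD and 68.0, 8.69, 10.4 and 9.24 in 5xFAD-Dp16. The 6 libraries stand out without overlap. Markers of the hippocampus were present in all 16: Prox1, of dentate granule cells, ranged from 65.7 to 141 CPM and Wfs1, of CA1 pyramidal cells, from 83.0 to 227 CPM. App, which is in the duplicated segment, was 1.59-fold higher in Dp16 than in WT (edgeR adjusted p = 0.000856), and Thy1, whose sequences drive the transgenes, read 2.68-fold higher in 5xFAD than in WT (adjusted p = 2.12e-05). In bulk tissue, fewer cells of a type and less RNA per cell cannot be told apart, in any result below.

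**Figure D1:**
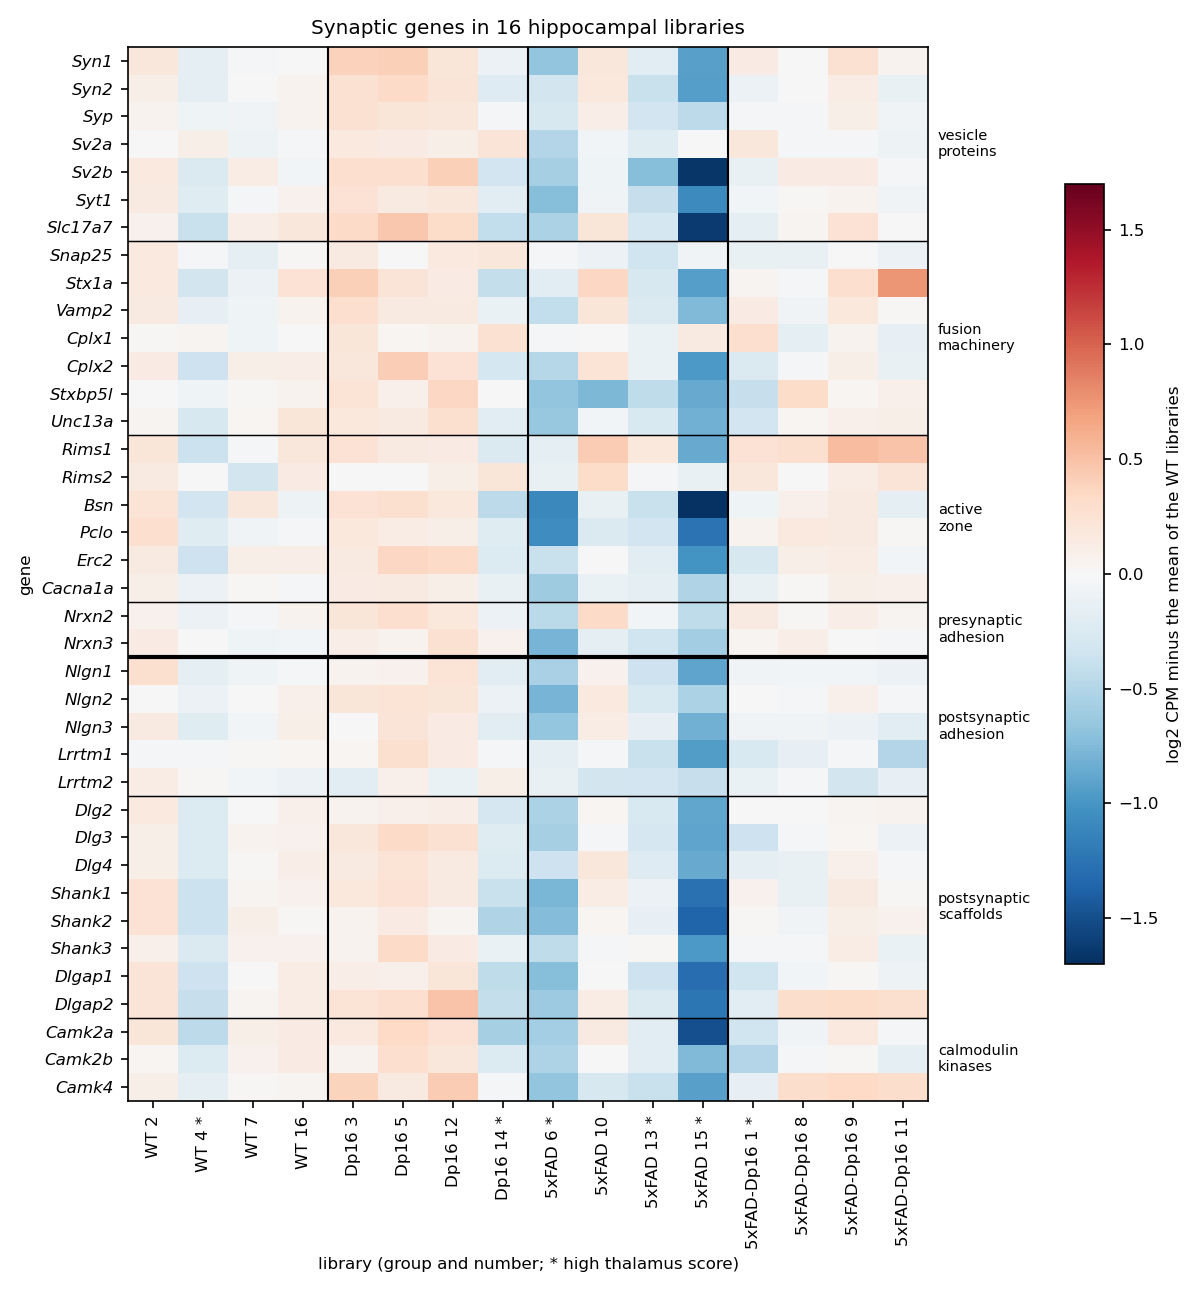
Each cell of the map is 1 member (rows, grouped by role, presynaptic above the thick line) in 1 library (columns, by group), coloured by its log2 CPM minus the mean of the 4 WT libraries; asterisks mark the 6 libraries of high thalamus score. 5xFAD 15 and 5xFAD 6 are the bluest columns, and Stxbp5l is blue in all 4 5xFAD libraries.

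The mean over members moved with that score. The presynaptic score (mean log2 CPM of the 22 genes, WT mean at 0) was -0.79 in 5xFAD 15, -0.49 in 5xFAD 6, -0.25 in 5xFAD 13 and 0.04 in 5xFAD 10. The postsynaptic score of the 16 other genes was -0.97, -0.55, -0.24 and 0.02 in the same order. In each of the other groups the library of high thalamus score was the lowest on both: WT 4 at -0.17 and -0.23, Dp16 14 at -0.12 and -0.24, and 5xFAD-Dp16 1 at -0.02 and -0.15. Over the 10 libraries of low score the presynaptic score ran from -0.02 to 0.22 and the postsynaptic from -0.05 to 0.21. The 3 low-scoring Dp16 libraries had presynaptic scores of 0.20 to 0.22, above all other libraries. 5xFAD 15 stands apart from the rest: its excitatory neuron marker score was -1.21, the lowest of the 16, while its pan-neuronal score was -0.03, near the WT mean. Its mature oligodendrocyte score of 1.06 was the highest and its CA1 and CA3 score of -0.88 the lowest of the 16. The part of these cell types in its member scores was not tested.

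**Figure D2:**
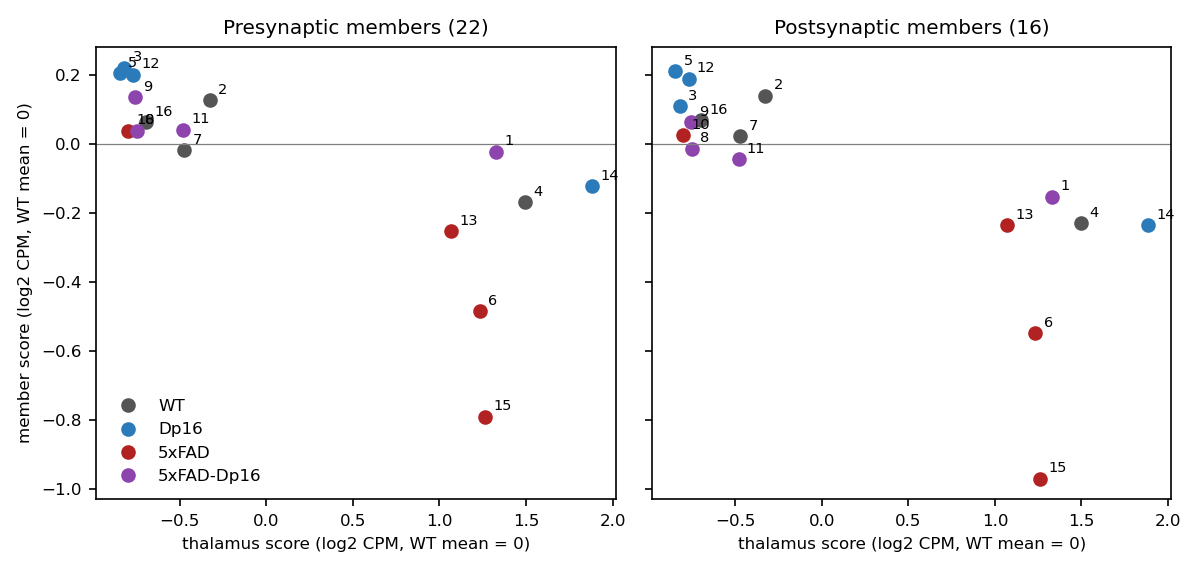
Each point is a library, numbered as in its label and coloured by group, with the thalamus score on the horizontal axis and the mean log2 CPM of the 22 presynaptic (left) or 16 postsynaptic (right) genes on the vertical axis, both set to 0 at the WT mean. The 6 libraries on the right lie below 0, and 5xFAD 15 lies lowest, at -0.79 and -0.97.

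The slope of each gene on the thalamus score, with group and sex in the edgeR fit, describes this within groups. Of the 38 members 21 fell with the score and 0 rose (adjusted p below 0.05 over all 17132 genes); among all genes 6.57% fell and 5.78% rose. The members' median slope was -0.16 (log2 change per log2 unit of the score), against 0.0046 over all genes. It was -0.15 for the presynaptic genes, of which 11 of 22 fell, and -0.17 for the postsynaptic genes, of which 10 of 16 fell. Leaving out Dp16 14 or 5xFAD 10 left 8 members called in each case, while the share of all genes that fell went to 1.76% and 1.81%. By role 4 of 7 vesicle genes fell, 3 of 7 of the fusion machinery, 4 of 6 of the active zone, 0 of 2 neurexins, 1 of 5 postsynaptic adhesion genes, 6 of 8 scaffolds and 3 of 3 kinases. The steepest was Camk2a at -0.31 (SE 0.06, adjusted p = 0.00535), then Slc17a7 at -0.30 and Dlgap2 at -0.29. At the other end Cplx1 had a slope of 0.07 (SE 0.03, adjusted p = 0.178), Lrrtm2 of 0.04, Sv2a of 0.03 and Snap25 of 0.00 (SE 0.03).

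**Figure D3:**
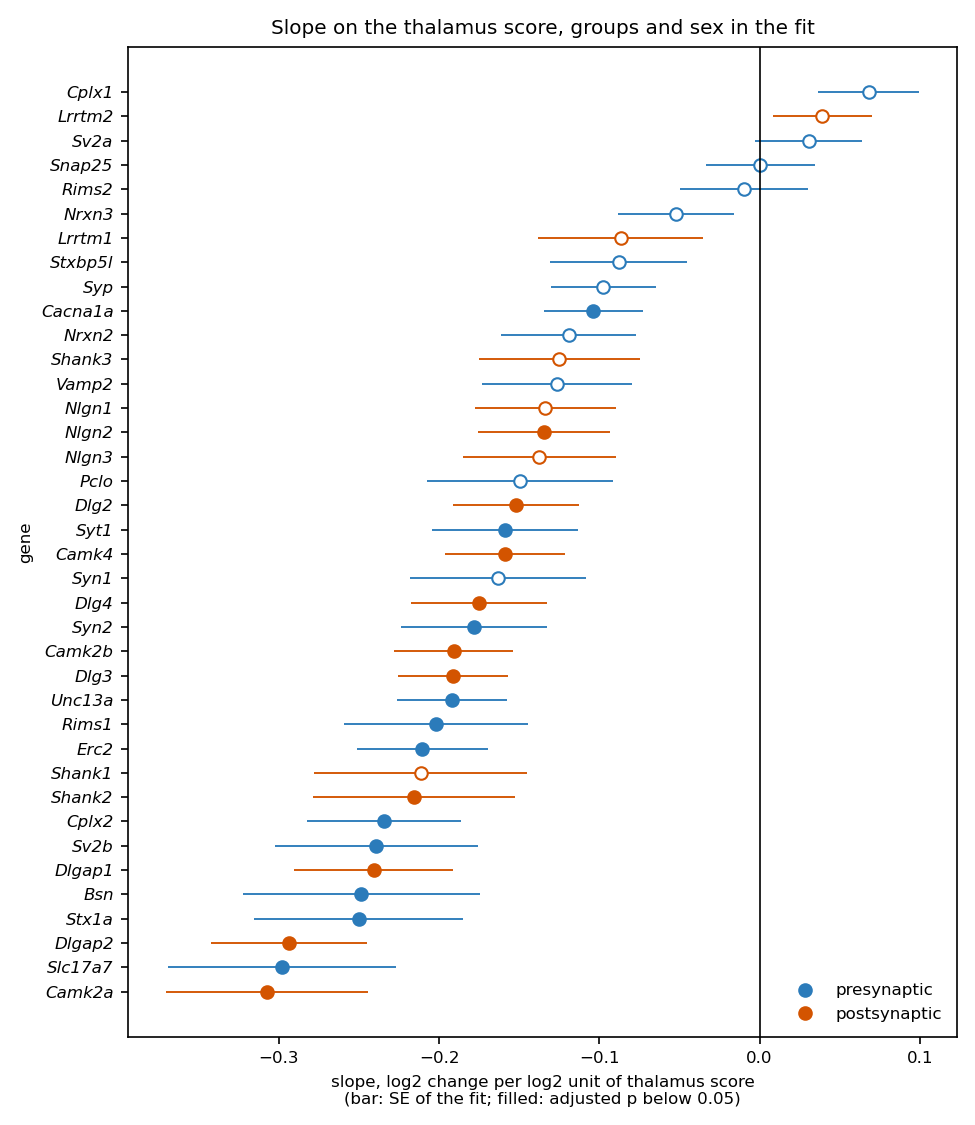
Points give each member's slope on the thalamus score (log2 change per log2 unit, groups and sex in the fit) with its SE, filled where the adjusted p is below 0.05, blue for presynaptic and orange for postsynaptic genes. Slopes run from -0.31 for Camk2a to 0.07 for Cplx1, and 21 points, all on the negative side, are filled.

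Related genes with the same role went different ways. Cplx1 and Cplx2 encode complexins, which clamp and promote SNARE-driven fusion. The RPKM ratio of Cplx1 to Cplx2 was between 0.62 and 0.82 in the 10 libraries of low thalamus score. It was 1.06 in WT 4, 1.19 in Dp16 14, 1.12 in 5xFAD 6, 0.81 in 5xFAD 13, 1.78 in 5xFAD 15 and 1.17 in 5xFAD-Dp16 1, so 5 of the 6 lay above all of the low ones. Sv2a and Sv2b encode glycoproteins of the vesicle membrane. Their ratio was between 1.37 and 1.73 in the 10 libraries and 2.14, 2.46, 1.77, 2.41, 5.30 and 2.11 in the 6, in the same order, with no overlap. Rims2 over Rims1, a pair of active zone organisers, ranged from 0.27 to 0.35 in the 10 and from 0.31 to 0.60 in the 6, which overlap.

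In 5xFAD against WT, 4 of the 38 members fell and 0 rose; over all genes 1.96% fell and 5.31% rose. The 4 were Stxbp5l, Pclo, Nrxn3 and Camk4. The estimates were below 0 for 36 of the 38, with a median of -0.34 on the log2 scale (0.027 over all genes), -0.32 for the presynaptic and -0.39 for the postsynaptic genes. An unadjusted p below 0.05 was reached by 15, a threshold for which the share over all genes was not counted. CPM of the 4 5xFAD libraries lay wholly below those of WT for 6 members (15.8%), the 4 named and Cacna1a and Lrrtm2, against 4.76% of all genes. Markers of other cells moved in the same comparison: all 11 microglia markers rose, with summed CPM of 442.5 to 541.3 in WT and 1175 to 2164 in 5xFAD, and none was at 0. The 12 thalamus markers were all higher by estimate (median 0.70, 0 called, 190.6 to 631.5 CPM in WT and 188.1 to 596.9 in 5xFAD), as were the 11 markers of mature oligodendrocytes (median 0.49, 0 called, 5380 to 6820 and 4828 to 12430 CPM). The 13 excitatory neuron markers were all lower by estimate (median -0.45, 0 called, 1956 to 2733 and 1243 to 2433 CPM), and the 14 pan-neuronal markers had a median of -0.065. Of 12 markers of CA1 and CA3 pyramidal cells 2 fell and 11 were lower by estimate (median -0.62, 770.3 to 1009 CPM in WT and 421.5 to 808.5 in 5xFAD); Wfs1 was 1 of the 2 (-0.65, SE 0.17, adjusted p = 0.0276). Of 12 inhibitory neuron markers 1 fell (median -0.28, 1402 to 1607 and 1129 to 1567 CPM). Astrocyte markers rose for 3 of 10 (median 0.18) and those of oligodendrocyte precursors for 1 of 7 (median 0.16), while the lists for dentate gyrus, choroid plexus, vessel cells and striatum gave 0 calls each (medians -0.18, -0.72, 0.21 and 0.098). The part of these cell types in the members' values was not tested.

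With the thalamus score as a covariate 6 members fell in this comparison (2.56% of all genes): those 4 and Syt1 (-0.43) and Lrrtm2 (-0.31). The median was then -0.26, with 36 of 38 below 0. Without the 6 libraries of high thalamus score 5xFAD 10 is the only 5xFAD library, and the fit assumes that it varies like the other groups. The median over members was then -0.042, with 17 estimates above 0 and 21 below. The counts over members and over all genes both moved with single libraries. Without 5xFAD 10, 31 members fell (median -0.55), against 10.7% of all genes. Leaving out WT 2, 5xFAD 6 or 5xFAD 15 left 1 member (medians -0.32, -0.31 and -0.22), against 0.195%, 0.351% and 0.403% of all genes. The calls of Pclo, Nrxn3 and Camk4 were also lost with only the 2 groups compared (adjusted p = 0.185, 0.128 and 0.0938) and with the pan-neuronal covariate (0.106, 0.0747 and 0.0563), at values close to those of all 16 libraries, and that of Camk4 without the 6 libraries (-0.34, adjusted p = 0.334).

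**Figure D4:**
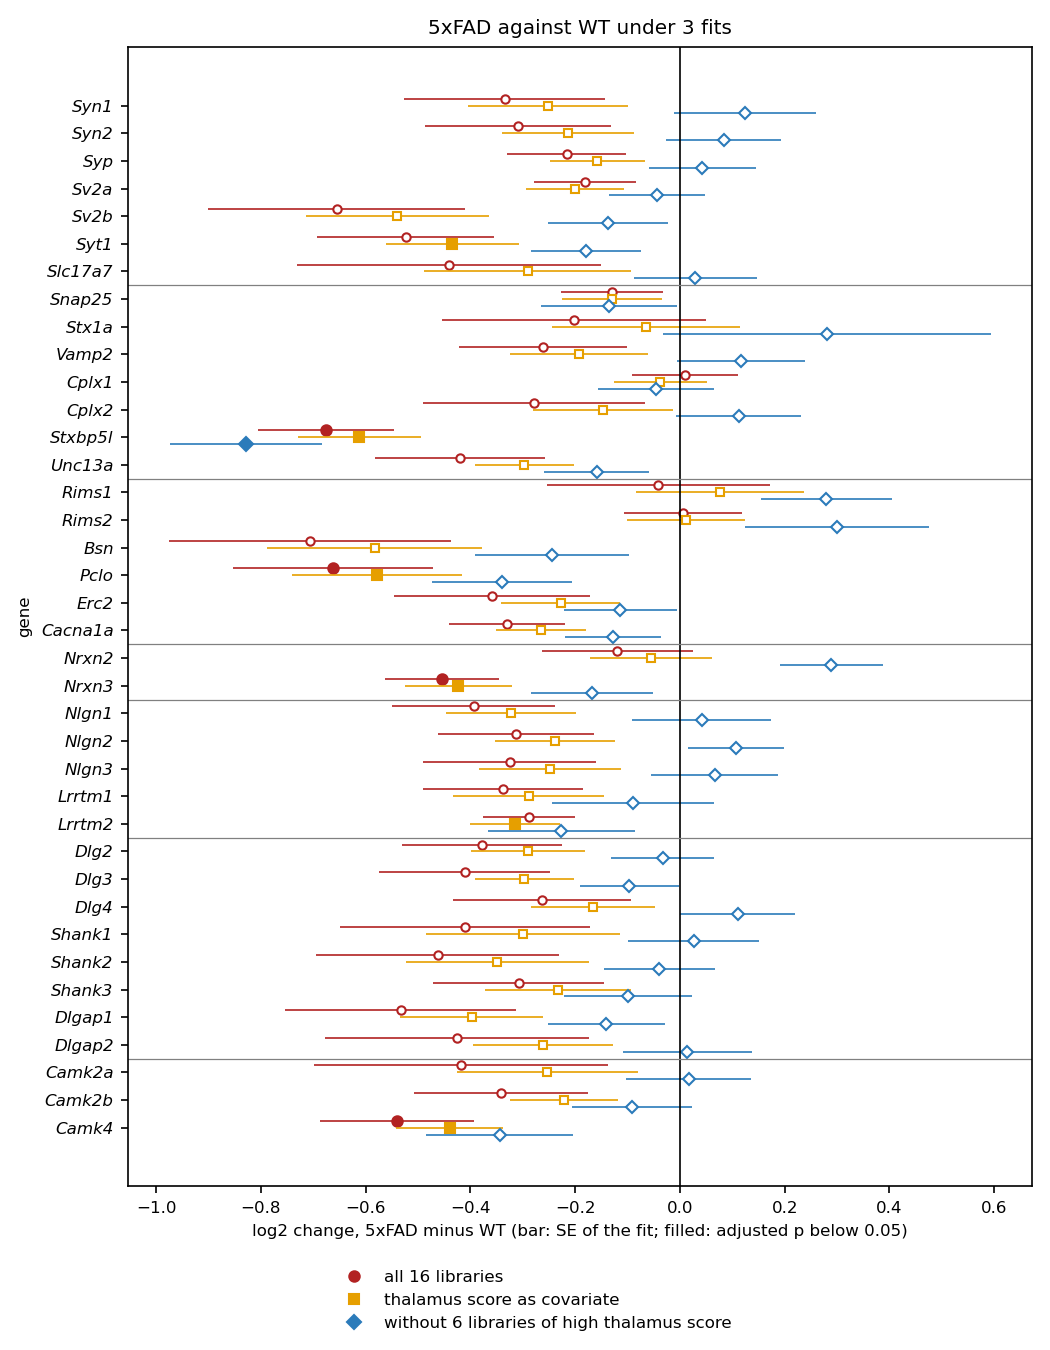
For each member the log2 change in 5xFAD against WT is plotted with its SE from 3 fits. These are all 16 libraries (circles), the thalamus score as a covariate (squares) and without the 6 libraries of high thalamus score (diamonds). Points are filled where the adjusted p is below 0.05, and the diamonds rest on 5xFAD 10 as the only 5xFAD library. Stxbp5l alone is filled in all 3, at -0.68, -0.61 and -0.83.

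Stxbp5l encodes tomosyn-2, a relative of syntaxin binding proteins that holds back SNARE assembly. It read 45.3, 43.6, 46.3 and 47.6 CPM in WT, 53.7, 48.7, 58.2 and 45.8 in Dp16, 28.7, 26.8, 33.9 and 25.2 in 5xFAD and 34.8, 56.7, 46.9 and 48.5 in 5xFAD-Dp16. All 4 5xFAD libraries, 5xFAD 10 among them, lay below every library of the other 3 groups. The 5xFAD mean was 28.6 ± 3.76 CPM, against 45.7 ± 1.7 for WT, 51.6 ± 5.48 for Dp16 and 46.7 ± 9.02 for 5xFAD-Dp16 (SD, n = 4 each). In 5xFAD it was 1.60-fold lower than in WT (-0.68 on the log2 scale, SE 0.13, edgeR adjusted p = 0.00408). The call was kept in every other setting with more than 1 5xFAD library. It was also kept in each of the 8 fits that left out a library (adjusted p from 0.00232 to 0.0157). Over all 9 other settings its value ran from -0.83 to -0.60. Its slope on the thalamus score was -0.09 (SE 0.04, adjusted p = 0.203). In 5xFAD-Dp16 against 5xFAD it rose by 0.71 (SE 0.13, adjusted p = 0.0242), a comparison that shares the 5xFAD libraries. The call is lost without 5xFAD 6 or 15 or without 5xFAD-Dp16 8, 9 or 11, with values from 0.60 to 0.85 over the 8 left-out fits. It is also lost with only the 2 groups compared (0.70, adjusted p = 0.337) and with limma on log2 RPKM (0.60, adjusted p = 0.0677). 5xFAD-Dp16 stood 0.03 (SE 0.13) from WT, with 5xFAD-Dp16 1 lower than the 4 WT libraries and 5xFAD-Dp16 8 and 11 higher. The interaction of both genotypes was 0.53 (SE 0.18, unadjusted p = 0.00954, adjusted p = 0.718), so a difference of the amyloid effect between backgrounds did not pass the test.

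**Figure D5:**
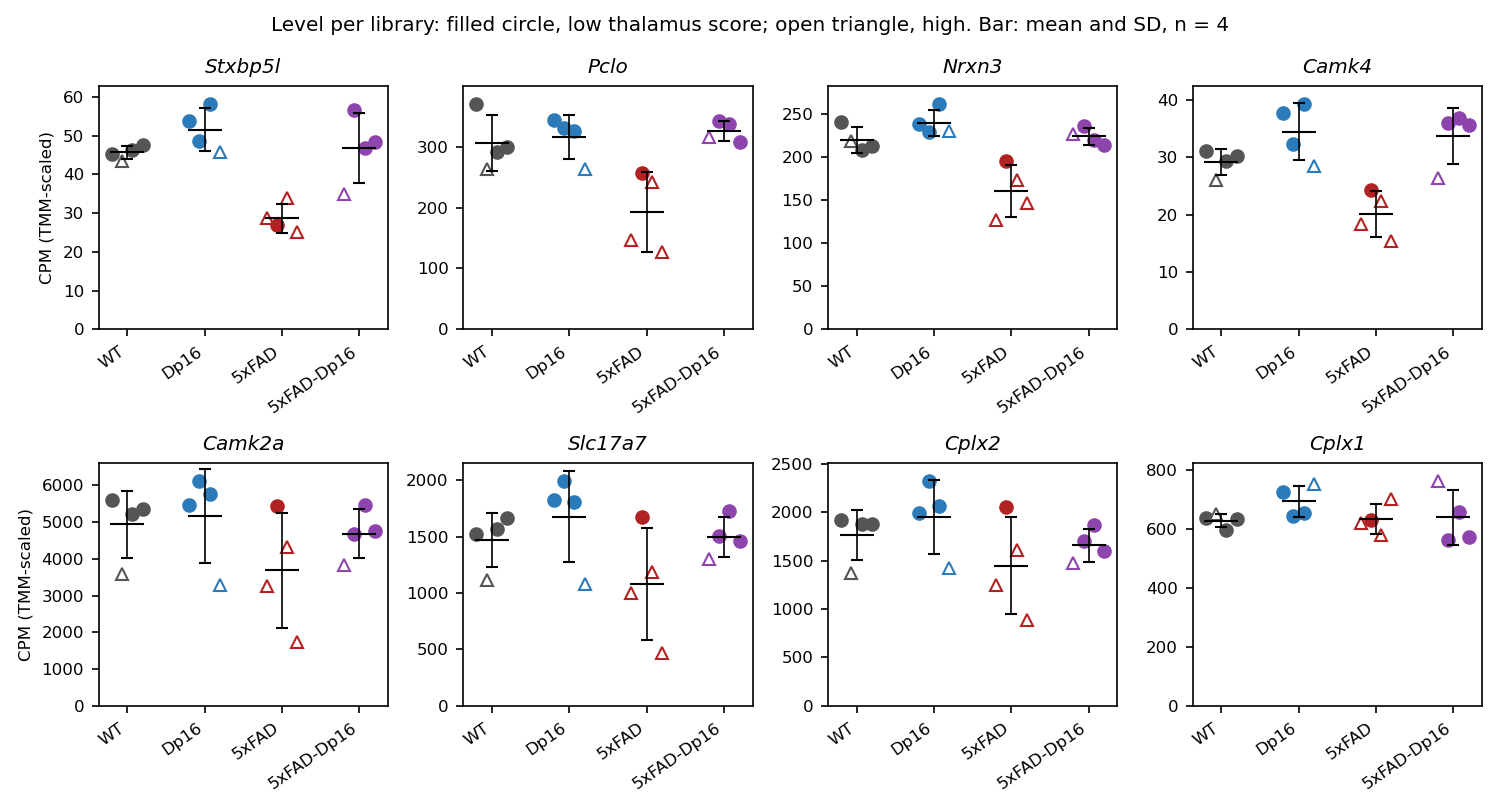
CPM of 8 members by group, 1 point per library, filled circles for low and open triangles for high thalamus score, with the mean and SD of 4 libraries. For Stxbp5l the 5xFAD libraries (25.2 to 33.9 CPM, against 43.6 to 47.6 in WT) lie below all others, and the other groups overlap. For Camk2a, Slc17a7 and Cplx2 the triangles lie lowest in each group.

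Vesicle proteins load, tether and mark synaptic vesicles. In 5xFAD against WT 0 of 7 passed the test, with a median of -0.34 and all 7 below 0. Syp, used widely as a terminal marker, read 1488, 1349, 1369 and 1488 CPM in WT, 1697, 1647, 1625 and 1388 in Dp16, 1179.7, 1542, 1139.6 and 1042 in 5xFAD and 1406, 1386, 1524 and 1364 in 5xFAD-Dp16. Of the 4 5xFAD libraries 3 were below all WT libraries and 5xFAD 10 was above them. Syn2, a synapsin that tethers vesicles to actin, read 754, 629.9, 709 and 731 CPM in WT, 846, 882, 819 and 604 in Dp16, 568, 799, 540.4 and 369.9 in 5xFAD and 658, 700.1, 769.5 and 643 in 5xFAD-Dp16. Here 5xFAD 15 was the lowest of the 16 and 5xFAD 10 was again above WT. Sv2b read 446, 334, 432 and 382 CPM in WT, 484, 484, 523 and 316 in Dp16, 267, 376, 239.9 and 126 in 5xFAD and 362, 435, 437 and 391 in 5xFAD-Dp16, and its difference of -0.66 (SE 0.24, adjusted p = 0.119) was the largest of this role. Syt1, the calcium sensor for fast release, read 1650.4, 1281, 1465 and 1554 CPM in WT, 1762, 1647, 1692 and 1310.4 in Dp16, 897, 1416, 1126 and 698 in 5xFAD and 1437, 1508, 1543 and 1419.7 in 5xFAD-Dp16. It stood at -0.52 (SE 0.17, adjusted p = 0.0726), with 5xFAD 10 inside the WT range and the other 3 below it; all 4 5xFAD-Dp16 libraries were above all 5xFAD libraries. Slc17a7 read 1526, 1119, 1568 and 1665 CPM in WT, 1819.8, 1996, 1802 and 1083 in Dp16, 999.8, 1669, 1183 and 471 in 5xFAD and 1298, 1505, 1730.5 and 1464 in 5xFAD-Dp16. 5xFAD 15 had the lowest Slc17a7 value and 5xFAD 10 one slightly above the highest WT library. The remaining pair, Syn1 (a synapsin) and Sv2a, ranged over the 16 libraries from 449 to 1123 CPM and from 346 to 569.7 CPM. Exons of Syn1 and Syn2 overlap those of Araf and Timp4 on the other strand.

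The fusion machinery brings vesicle and plasma membranes together, and 1 of 7 members, Stxbp5l, fell in 5xFAD against WT (median -0.26). Snap25 read 2469.5, 2167, 1983 and 2241 CPM in WT, 2445, 2224, 2487 and 2514 in Dp16, 2181, 2069, 1739 and 2113 in 5xFAD and 2026, 2019, 2218 and 2058 in 5xFAD-Dp16. Its groups overlap in this comparison, and it was -0.13 (SE 0.10) in 5xFAD. Stx1a, syntaxin-1A of the plasma membrane, read 100.1, 71.4, 82.9 and 105 CPM in WT, 117, 104, 98.0 and 66.9 in Dp16, 78.8, 114, 73.8 and 46.3 in 5xFAD and 92.2, 87.5, 108 and 149 in 5xFAD-Dp16. 5xFAD-Dp16 11 was the highest and 5xFAD 15 the lowest of the 16. Cplx2 read 1919.6, 1376, 1878 and 1884 CPM in WT, 1993, 2331, 2072 and 1426 in Dp16, 1248, 2052, 1613 and 887 in 5xFAD and 1472, 1703, 1873 and 1599 in 5xFAD-Dp16. The library of high thalamus score was the lowest in WT, Dp16 and 5xFAD-Dp16, and the 3 such libraries were the 3 lowest in 5xFAD. Unc13a encodes Munc13-1, which primes vesicles for fusion, and it read 311, 249, 310.1 and 347 CPM in WT, 343, 337, 364 and 266 in Dp16, 193, 294, 252 and 172 in 5xFAD and 241, 310.3, 320.2 and 324 in 5xFAD-Dp16. It was -0.42 (SE 0.16, adjusted p = 0.125), with 5xFAD 10 and 13 inside the WT range. Its exons overlap those of Colgalt1 on the other strand, and the strand setting of the counting was not stated. Vamp2 and Cplx1 ranged from 765 to 1564 CPM and from 563 to 765 CPM, and Cplx1 was 0.01 (SE 0.10) in 5xFAD.

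The active zone is the protein mesh where vesicles dock beside calcium channels. Of its 6 members 1, Pclo, fell in 5xFAD against WT (median -0.35, 5 of 6 below 0). Pclo encodes piccolo, a very large scaffold, and read 370.2, 263, 291 and 300.3 CPM in WT, 344, 331, 325 and 263 in Dp16, 146, 256, 242 and 127 in 5xFAD and 316, 342, 337 and 308 in 5xFAD-Dp16. All 4 5xFAD libraries were below all 4 WT libraries, by a wide step in 5xFAD 6 and 15 and a small step in 10 and 13. The difference was -0.66 (SE 0.19, adjusted p = 0.0485), near the threshold; the call was lost without any 1 WT library and without 5xFAD 6 or 15 (values from -0.87 to -0.51). Without the 6 libraries of high thalamus score it was -0.34 (adjusted p = 0.31). Bsn encodes bassoon, the partner of piccolo, and read 765, 519, 742 and 615 CPM in WT, 776, 791, 742 and 481 in Dp16, 306, 599, 502 and 203 in 5xFAD and 620.4, 694, 724 and 583 in 5xFAD-Dp16. It had the lowest estimate of all members, -0.71, but a SE of 0.27 and an adjusted p of 0.125, and 5xFAD 10 was inside the WT range. Rims1, a RIM protein that ties vesicles to calcium channels, read 234, 158, 197 and 230.2 CPM in WT, 241, 225, 223 and 171 in Dp16, 182, 273, 229 and 112 in 5xFAD and 239.8, 244, 290.1 and 283 in 5xFAD-Dp16. The 4 5xFAD-Dp16 libraries lay above the 4 WT libraries (0.37, SE 0.21, adjusted p = 0.694), as did 6.1% of all genes. Erc2, an ELKS family organiser, read 194, 137, 187 and 188 CPM in WT, 195, 223, 219 and 149 in Dp16, 135, 174, 154 and 86.3 in 5xFAD and 145, 186, 191 and 169 in 5xFAD-Dp16. All 4 5xFAD values were below those of WT 2, 7 and 16, and WT 4 lay among them. Cacna1a, the pore subunit of P/Q-type calcium channels, read 197, 171, 186 and 182 CPM in WT, 202, 204, 198 and 168 in Dp16, 121, 171, 166 and 129 in 5xFAD and 168, 186, 197 and 195 in 5xFAD-Dp16. The 5xFAD libraries were all below WT, 5xFAD 10 narrowly, and the difference of -0.33 (SE 0.11, adjusted p = 0.0803) did not pass the test. Rims2 ranged from 67.1 to 103 CPM and was 0.01 in 5xFAD.

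Of the neurexins, Nrxn3 fell in 5xFAD against WT and Nrxn2 did not pass the test. Nrxn3 read 240.5, 218, 207 and 212 CPM in WT, 237, 229, 261 and 230.2 in Dp16, 127, 195, 173 and 146 in 5xFAD and 226, 236, 219.8 and 213 in 5xFAD-Dp16. The 5xFAD libraries were the lowest 4 of all 16. The difference was -0.45 (SE 0.11, adjusted p = 0.0193), and its slope on the thalamus score was -0.05 (SE 0.04, adjusted p = 0.396). The call was lost without WT 2, 5xFAD 6 or 5xFAD 15 (values from -0.57 to -0.35), and without the 6 libraries of high thalamus score it was -0.17 (adjusted p = 0.608). Nrxn2 read 564, 503, 527 and 561 CPM in WT, 618, 656, 608 and 501 in Dp16, 390.4, 677, 519 and 398 in 5xFAD and 598, 545, 582 and 555 in 5xFAD-Dp16. 5xFAD 10 was the highest of all 16 and 5xFAD 6 the lowest.

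On the postsynaptic side the 5 adhesion genes, which bind neurexins across the cleft, gave 0 calls in 5xFAD against WT (median -0.33, all below 0). Nlgn2, the neuroligin found mainly at inhibitory synapses, read 315, 294, 315 and 333 CPM in WT, 363, 369, 363 and 293 in Dp16, 182, 353, 264 and 216 in 5xFAD and 313, 309, 332 and 309.6 in 5xFAD-Dp16. 5xFAD 10 was above all WT libraries and the other 3 below them. Nlgn1, of excitatory synapses, read 108, 80.2, 85.0 and 88.4 CPM in WT, 94.0, 94.9, 105 and 79.3 in Dp16, 61.4, 94.1, 70.5 and 48.5 in 5xFAD and 86.2, 86.7, 86.7 and 83.6 in 5xFAD-Dp16, and its -0.39 (SE 0.15, adjusted p = 0.132) was the largest difference of this role. Lrrtm2, a leucine-rich repeat partner of neurexins, ranged from 44.5 to 53.8 CPM in 5xFAD and from 54.5 to 64.1 CPM in WT, without overlap (-0.29, SE 0.09, adjusted p = 0.0576). It did not fall with the thalamus score, and its exons overlap the antisense gene Ctnna1. Lrrtm1 and Nlgn3 ranged from 53.1 to 124 CPM and from 43.6 to 89.4 CPM.

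Scaffolds of the postsynaptic density link glutamate receptors to the cytoskeleton. Of the 8, 0 passed the test in 5xFAD against WT, with a median of -0.41 and all 8 below 0. Dlg2, PSD-93, read 413, 313, 365 and 389 CPM in WT, 384, 392, 397 and 301 in Dp16, 254, 376, 307 and 199 in 5xFAD and 366, 367, 381 and 384 in 5xFAD-Dp16. Dlg3, SAP102, read 251, 200.2, 245 and 246 CPM in WT, 268, 294, 282 and 203 in Dp16, 158, 231, 192 and 126 in 5xFAD and 184, 231, 239.7 and 219.5 in 5xFAD-Dp16. Dlg4, PSD-95, read 1089, 865, 1025 and 1091 CPM in WT, 1127, 1192, 1126 and 862 in Dp16, 796, 1157, 873 and 559.6 in 5xFAD and 907, 927, 1078 and 997 in 5xFAD-Dp16. In all 3 DLG genes 5xFAD 15 was the lowest library, and the library of high thalamus score was the lowest of WT, of Dp16 and of 5xFAD-Dp16, with Dlg2 in 5xFAD-Dp16 the narrowest case. Shank1 read 1337, 881, 1172 and 1184 CPM in WT, 1281, 1344, 1253 and 871 in Dp16, 661, 1236, 1059 and 469.7 in 5xFAD and 1187, 1037, 1255 and 1148 in 5xFAD-Dp16. Shank2 read 301, 197, 270.3 and 257 CPM in WT, 265, 278, 262 and 177 in Dp16, 152, 259.6, 229 and 98.6 in 5xFAD and 257, 243, 272 and 266 in 5xFAD-Dp16. The SHANK proteins are the layer below the DLGAP proteins, and for both genes 5xFAD 15 was the lowest of the 16. Dlgap1 read 857, 575, 736 and 802 CPM in WT, 791, 776, 846 and 546 in Dp16, 445, 729.8, 573 and 300 in 5xFAD and 579.7, 712, 742 and 694 in 5xFAD-Dp16. Dlgap2 read 66.9, 44.1, 59.3 and 63.2 CPM in WT, 68.0, 70.3, 80.8 and 43.4 in Dp16, 37.5, 62.7, 48.5 and 24.6 in 5xFAD and 50.4, 70.7, 71.5 and 69.5 in 5xFAD-Dp16. Dlgap1 had the largest difference of this role, -0.53 (SE 0.22, adjusted p = 0.151), with 5xFAD 10 inside the WT range. Shank3 ranged from 182 to 449 CPM.

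Among the calmodulin kinases 1 of 3, Camk4, fell in 5xFAD against WT. Camk4 encodes a kinase of the nucleus that phosphorylates CREB, and it read 31.1, 26.0, 29.4 and 30.2 CPM in WT, 37.7, 32.3, 39.3 and 28.5 in Dp16, 18.3, 24.2, 22.4 and 15.3 in 5xFAD and 26.4, 36.0, 36.8 and 35.7 in 5xFAD-Dp16. All 4 5xFAD libraries were below all libraries of the other groups. The difference from WT was -0.54 (SE 0.15, adjusted p = 0.0349), with the call lost without WT 2, 7 or 16 or 5xFAD 6 or 15 (-0.66 to -0.43). In 5xFAD-Dp16 against 5xFAD it rose by 0.75 (SE 0.15, adjusted p = 0.0422). This call was lost without 5xFAD 6 or 15 or without 5xFAD-Dp16 8, 9 or 11 (0.64 to 0.87 over the 8 left-out fits). It was also lost with only the 2 groups compared (adjusted p = 0.296), with the pan-neuronal covariate (adjusted p = 0.138) and without the 6 libraries of high thalamus score, which leaves 5xFAD 10 alone in its group (0.60, adjusted p = 0.0682). Camk2a read 5590.3, 3589, 5217 and 5363 CPM in WT, 5467, 6129, 5754 and 3283 in Dp16, 3262, 5427, 4317 and 1735 in 5xFAD and 3833, 4669.8, 5461 and 4759.6 in 5xFAD-Dp16. 5xFAD 10 lay in the WT range and 5xFAD 15 was the lowest of all. Camk2b, the beta subunit, read 1407, 1170.2, 1444 and 1516 CPM in WT, 1435, 1672, 1568 and 1176 in Dp16, 955, 1382, 1216 and 816 in 5xFAD and 974, 1353, 1398 and 1239 in 5xFAD-Dp16. For both subunits the library of high thalamus score was the lowest of WT, of Dp16 and of 5xFAD-Dp16.

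Dp16 against WT gave 0 calls among the 38 (0.222% of all genes rose and 0.00584% fell), and 0 members had an unadjusted p below 0.05. Estimates were above 0 for 34, all 22 presynaptic genes among them, with a median of 0.11 (0.13 presynaptic, 0.069 postsynaptic; 0.0016 over all genes). They ran from -0.06 for Shank2 to 0.24 for Camk4. Only Sv2a had all 4 Dp16 libraries above all WT libraries, 1 member (2.63%) against 2.42% of all genes, so the count is near the background. Sv2a was 0.16 (SE 0.10, adjusted p = 0.946). The 14 pan-neuronal markers summed to 5716 to 6434 CPM in WT and 6540 to 6677 CPM in Dp16, without overlap. Their mean log2 CPM, the pan-neuronal score, did overlap, at -0.116 to 0.083 in WT and 0.078 to 0.183 in Dp16. The part of these markers in the estimates was not tested.

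5xFAD-Dp16 against 5xFAD gave 2 rises, Stxbp5l and Camk4, and 0 falls (0.245% and 0.0584% of all genes). All 38 estimates were above 0, with a median of 0.34, and 14 had an unadjusted p below 0.05 (share over all genes not counted). The 5xFAD libraries of low values enter here as the reference, as they enter the comparison with WT. Non-overlapping CPM, higher in 5xFAD-Dp16, were seen for 5 members (Camk4, Nrxn3, Pclo, Stxbp5l and Syt1; 13.2%, against 3.46% of all genes). Without the 6 libraries of high thalamus score, which leaves 5xFAD 10 as the only 5xFAD library, the median was -0.0071. In that fit 18 estimates were above 0, and Stxbp5l stood at 0.94. Without 5xFAD 10, 27 members rose (median 0.56), against 7.5% of all genes, and without 5xFAD 15 or 5xFAD 6 0 did (medians 0.22 and 0.28; 0.19% and 0.178% of all genes).

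5xFAD-Dp16 against Dp16, the amyloid comparison on the duplication background, gave 0 calls (2.99% of all genes rose and 0.035% fell), although the 11 microglia markers rose, from 473.8 to 548.3 summed CPM in Dp16 to 1231 to 1491. The median was -0.12, with 31 of 38 estimates below 0. An unadjusted p below 0.05 (share over all genes not counted) was reached by 2 members, Snap25 and Lrrtm1. These were also the 2 whose 5xFAD-Dp16 libraries were all below those of Dp16 (5.26%, against 3.47% of all genes), at -0.22 (SE 0.10) and -0.33 (SE 0.15). Without the 6 libraries of high thalamus score, which leaves 3 in each of these groups, the median was -0.18, 35 of 38 were below 0, and Dlg3 fell (-0.28, SE 0.07, adjusted p = 0.0312; 0.393% of all genes fell). 5xFAD-Dp16 against WT gave 0 calls (3.1% rose and 0.0992% fell over all genes) and a median of 0.013. The interaction gave 0 calls over all genes and among members; its median over members, 0.25, was -0.13 without the 6 libraries.

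Averaged over both backgrounds, amyloid carriers against non-carriers gave 2 falls, Stxbp5l (-0.41, SE 0.09, adjusted p = 0.00824) and Nrxn3 (-0.28, SE 0.08, adjusted p = 0.0343), and 0 rises; over all genes 1.98% fell and 6.61% rose. The Stxbp5l call was kept in every setting with more than 1 5xFAD library. It was also kept in each of the 16 fits that left out a library. That of Nrxn3 was lost in 10 of the 16, and its values ran from -0.33 to -0.23. The Nrxn3 call was also lost with the pan-neuronal covariate (-0.24, adjusted p = 0.21) and without the 6 libraries of high thalamus score (-0.14, adjusted p = 0.422). With the thalamus score as a covariate 7 members fell (4.26% of all genes): Stxbp5l, Unc13a, Nrxn3, Lrrtm2, Dlg3, Camk2b and Camk4. Dp16 carriers against non-carriers gave 2 rises, Stxbp5l (0.44, adjusted p = 0.0362) and Camk4 (0.50, adjusted p = 0.0389), and 0 falls (0.432% and 0.0992% of all genes), each lost in 12 of 16 fits that left out a library. Both averages use the 5xFAD libraries.

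Other synaptic genes, a list of 44 release genes and 33 postsynaptic genes, also had negative medians in 5xFAD against WT and on the thalamus score. In 5xFAD against WT 0 of the 44 passed the test (median -0.19) and 2 of the 33 did (median -0.33). Over all genes 5.31% rose and 1.96% fell there. Camk1, another calcium/calmodulin kinase, rose by 0.60 (SE 0.13) and Camkk1, which activates Camk1 and Camk4, fell (-0.43, SE 0.12). Without the 6 libraries of high thalamus score 5xFAD 10 is the only 5xFAD library. The medians in this comparison were then -0.0072 (release) and -0.016 (postsynaptic), against -0.011 over all genes. On the thalamus score 4 release genes rose and 16 fell (median -0.062), and 1 postsynaptic gene rose and 22 fell (median -0.142). Over all genes 5.78% rose and 6.57% fell with it. The rises were led by Syt2 at 0.62 and Vamp1 at 0.58, relatives of Syt1 and Vamp2, then Unc13c at 0.57 and Rims3 at 0.50.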

How the data were processed

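Hippocampal polyA RNA was sequenced in 16 libraries, grouped by title. Per the labels' protocols, RNA came from a TRIzol extraction and libraries kept strand information. The submitters' processing notes name the GRCm38 build, HTSeq 0.6.1, HISAT2 2.1.0, FastQC 0.11.5 and SAMtools 1.5, without roles; strand setting and treatment of multiply mapped reads were not given in the sources used here. The authors deposited raw read counts per gene, summing to 16922937 to 25308693 per library. The authors also deposited RPKM values, which were checked to equal count over column total and 1 length per gene (relative tolerance 1e-06) in all 17132 genes tested.

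Counts were fitted with edgeR 4.0.16 in R 4.3.3 (filterByExpr with a minimum count of 10, TMM factors from 0.9445 to 1.13, quasi-likelihood test, 4 groups and sex). Called means a Benjamini-Hochberg adjusted p below 0.05 over all 17132 genes; log2 changes carry the SE of the fit. Scores used log2 CPM with a prior of 0.5 counts. Library numbers are unique and pair nothing. The p-values set a difference against the spread between libraries, estimated over all libraries in the fit together. The spread of a group with 1 library is therefore not measured. A library had a high thalamus score when above the midpoint of the range. Alternatives were DESeq2 1.42.0, no filter, a minimum count of 50, limma 3.58.1 on log2(RPKM + 0.1), no sex term, only the groups compared, a thalamus or pan-neuronal covariate, and fits without the 6 libraries of high thalamus score or without each library. The fit was tested on simulated data. The members, lists and tests were chosen with earlier results of these data known. Values in every library are given for members called in any comparison or on the slope, and for the highest by RPKM and the largest 5xFAD difference of each role. Gene positions come from GENCODE M21 (GRCm38).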

Additional observations from a re-analysis of the deposited data

Results flagged for a closer look

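In 13 of 160 tests of whether 1 library lies far from the other 3 of its group (gap over range above Dixon's 95% critical value), a library did so; chance flags about 1 in 20. All were the lowest of their group, and 12 of the 13 were in libraries of high thalamus score. In WT 4 these were Cplx2 at 1376.1 CPM (others 1878 to 1920), Erc2 at 137 CPM (187 to 194), Dlg3 at 200.19 CPM (245 to 251) and Shank3 at 303 CPM (378 to 380.5). In Dp16 14 they were Bsn at 480.9 CPM (742 to 791), Nlgn2 at 293 CPM (363 to 369), Dlg2 at 301 CPM (384 to 397), Shank2 at 177 CPM (262 to 278) and the presynaptic score at -0.12 (0.20 to 0.22). In 5xFAD-Dp16 1 they were Unc13a at 241 CPM (310.3 to 324), Dlgap2 at 50.4 CPM (69.5 to 71.5) and Camk4 at 26.4 CPM (35.7 to 36.8). In 5xFAD-Dp16 11 it was Nlgn1 at 83.6 CPM (86.2 to 86.7).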

How the results depend on the processing

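No call turned direction in any setting, and Dp16 against WT gave 0 members called in all 9 settings and all 8 fits without a library. Percentages in brackets are the share of all genes called in the same fit, in either direction. In 5xFAD against WT (4 called, 7.26%) DESeq2 called 9 (12.4%) and no low-count filter 25 (8.37%). Only the 2 groups compared gave 1 (3.15%) and the pan-neuronal covariate 1 (4.71%). The fit without the libraries of high thalamus score leaves 1 5xFAD library, so its counts of members called are not given for comparisons that use 5xFAD. Leaving out 1 library gave 1 to 31 members, with 31 without 5xFAD 10 (20%). Only 1 was called without WT 2 (3.22%), 5xFAD 6 (3.69%) or 5xFAD 15 (4.25%). Calls over all genes moved too, from 1244 with all libraries to 562 without WT 2 and 3486 without 5xFAD 10. For 5xFAD-Dp16 against 5xFAD (2 called, 0.304%) the counts were 6 with DESeq2 (3.72%) and 21 without a filter (5.15%). Limma on log2 RPKM called 1 (0.298%), only the 2 groups 0 (0.0607%) and the pan-neuronal covariate 1 (0.187%). Leaving out 1 library gave 0 to 27, with 27 without 5xFAD 10 (2045 of all genes, against 52). The fit without the libraries of high thalamus score called 1 member in 5xFAD-Dp16 against Dp16 (3.15%). Without a filter 1 was called in 5xFAD-Dp16 against WT (2.93%) and 3 in the interaction (0.901%, against 0 with the filter). For amyloid carriers (2 called, 8.6%) there were 7 with DESeq2 (13.8%), 21 without a filter (8.68%) and 7 with the thalamus covariate (11.6%). The pan-neuronal covariate gave 1 (4.62%). Leaving out 1 library gave 1 to 25, with 25 without 5xFAD 10 (3327 of all genes, against 1473). For Dp16 carriers (2 called, 0.531%) there were 17 without a filter (4.5%), 1 with limma (0.572%) and 1 with the pan-neuronal covariate (0.187%). Leaving out 1 library gave 0 to 16, with 16 without 5xFAD 10 (1199 of all genes, against 91). The thalamus slope (21 called) gave 8 to 26 without 1 library, with 8 without Dp16 14 or 5xFAD 10 (708 and 877 of all genes, against 2116). The cause of these shifts was not tested. No paired analysis was possible because each library number is unique.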

Other observations

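Other related pairs kept a narrower RPKM ratio over the 16 libraries than the complexins did. Dlg4 over Dlg3 ranged from 1.76 in Dp16 12 to 2.22 in 5xFAD 6, and Syn1 over Syn2 from 1.43 in 5xFAD 6 to 2.17 in 5xFAD-Dp16 1, with libraries of high and low thalamus score overlapping in both.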
